A study of Mus musculus with 12 samples.

Results

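The genes described here encode the proteins that license replication origins, open the double helix, copy DNA and supply its building blocks in S phase. The set held 41 genes given by name, and each was represented by its probe set with the highest mean over the 12 arrays. All 41 had a probe set, out of 19938 genes measured. Their levels were followed in R1 cells, a mouse embryonic stem cell line, that had been infected with a scrambled control or carried a knockdown of Set, which encodes a histone chaperone and phosphatase inhibitor. RNA was hybridised to 1-colour Affymetrix gene arrays, 2 for each of 6 groups. The groups were RA KD1, RA KD2 and RA scrambled, grown for 4 days with 1 µM retinoic acid and 10% serum but without leukemia inhibitory factor (LIF), and ESC KD1, ESC KD2 and ESC scrambled, kept as stem cells in 15% serum with LIF. RA and ESC therefore differ in retinoic acid, serum and LIF at once. KD1 and KD2 are each 1 line, and the labels call knockdown and control cells clones, so an effect of the knockdown and one of the line cannot be told apart. Each p-value reflects the spread of arrays within these lines, and the number of arrays limits the precision.

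In eukaryotes the origin recognition complex, Cdc6 and Cdt1 load the ring of Mcm2 to Mcm7 onto DNA in G1, and Cdc45 and the GINS complex turn that ring into the moving helicase at the start of S phase. Primase and the replicative polymerases then copy both strands, held by the sliding clamp PCNA, while ribonucleotide reductase and thymidylate synthase make the nucleotides. Transcription of many of these genes is driven by E2F factors in late G1, and mouse embryonic stem cells are known for a short G1 and a large share of cells in S phase. In RNA from a whole culture, fewer cells in S phase and less RNA per cell cannot be told apart.

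In KD2, replicate 2 went against its label in both states. Over all genes, the RA array correlated at 0.952 on average with its own state and at 0.991 with ESC, and the ESC array at 0.952 with its own state and at 0.991 with RA. Both were left out of the fit described here, so KD2 is 1 array per state, with a spread assumed to equal that of the rest. Counts with all 12 arrays stand beside each comparison, and their values beside the gene that leads each role. The probe set that covers Set together with BC085271 read 11.28 and 11.16 log2 units in RA KD1, 11.70 in RA KD2 replicate 1, and 12.27 and 12.29 in RA scrambled. The ESC values were 12.13 and 11.94 in KD1, 12.15 in KD2 replicate 1, and 12.93 and 12.71 in scrambled. On this probe set knockdown arrays were below scrambled in each state, by log2 -1.06 for KD1 in RA (adjusted p = 0.000260), -0.78 for KD1 in ESC (0.00521) and -0.67 for KD2 in ESC (0.0374). KD2 in RA gave -0.59 and was not called (0.0681). The other probe set of Set with BC085271 gave -0.95 for KD1 in RA (limma adjusted p = 0.000649) and -0.75 for KD1 in ESC (0.00825). For KD2 it gave -0.64 in RA and -0.74 in ESC. Another 2 probe sets, which list Set and no second gene, passed the test in neither state, with adjusted p-values of 0.134 and above. They gave 0.10 and 0.24 for KD1 in RA, 0.22 and 0.24 for KD2 in RA, -0.59 and -0.32 for KD1 in ESC, and -0.06 and 0.02 for KD2 in ESC. The mean log2 value over 10 stem cell markers was 8.13 to 9.12 in the RA arrays and 11.58 to 11.96 in the ESC arrays, and that over 7 retinoic acid response genes was 10.52 to 11.28 in RA and 6.51 to 6.86 in ESC.

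The replication genes were lower in RA than in ESC, across every step of replication. In scrambled cells 37 of the 41 were called lower and 0 higher, where 20.8% of all genes tested were called lower and 21.8% higher. Calls needed a limma p below 0.05 after adjustment over all 19938 genes. The median RA minus ESC difference of the 41 was -0.76 log2 units, against -0.04 over all genes. In KD1, 33 were called lower and 1 higher (background 20.8% and 20.3%), with a median of -0.71 against -0.08 over all genes. In KD2, 21 were called lower and 0 higher (background 9.46% and 11%), with a median of -0.54 against 0.01. For 33 of the 41 genes, all 5 RA arrays lay below all 5 ESC arrays, an order found for 18.7% of all genes. The other 8, whose states overlapped, were Cdc6, Gins2, Gins3, Pola2, Prim2, Rrm1, Tyms and Ccne2. A fit of all 12 arrays called 26 genes lower in scrambled cells (background 5.66%), 18 in KD1 (4.26%) and 0 in KD2 (0%), where the median became -0.12 and the 41 differences lay between -0.39 and 0.03. It called 0 higher in scrambled cells (background 8.14%), 0 in KD1 (7.02%) and 0 in KD2 (0%). In scrambled cells and KD1 the RA minus ESC differences themselves are the same in both fits, and only their errors grow.

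**Figure D1:**
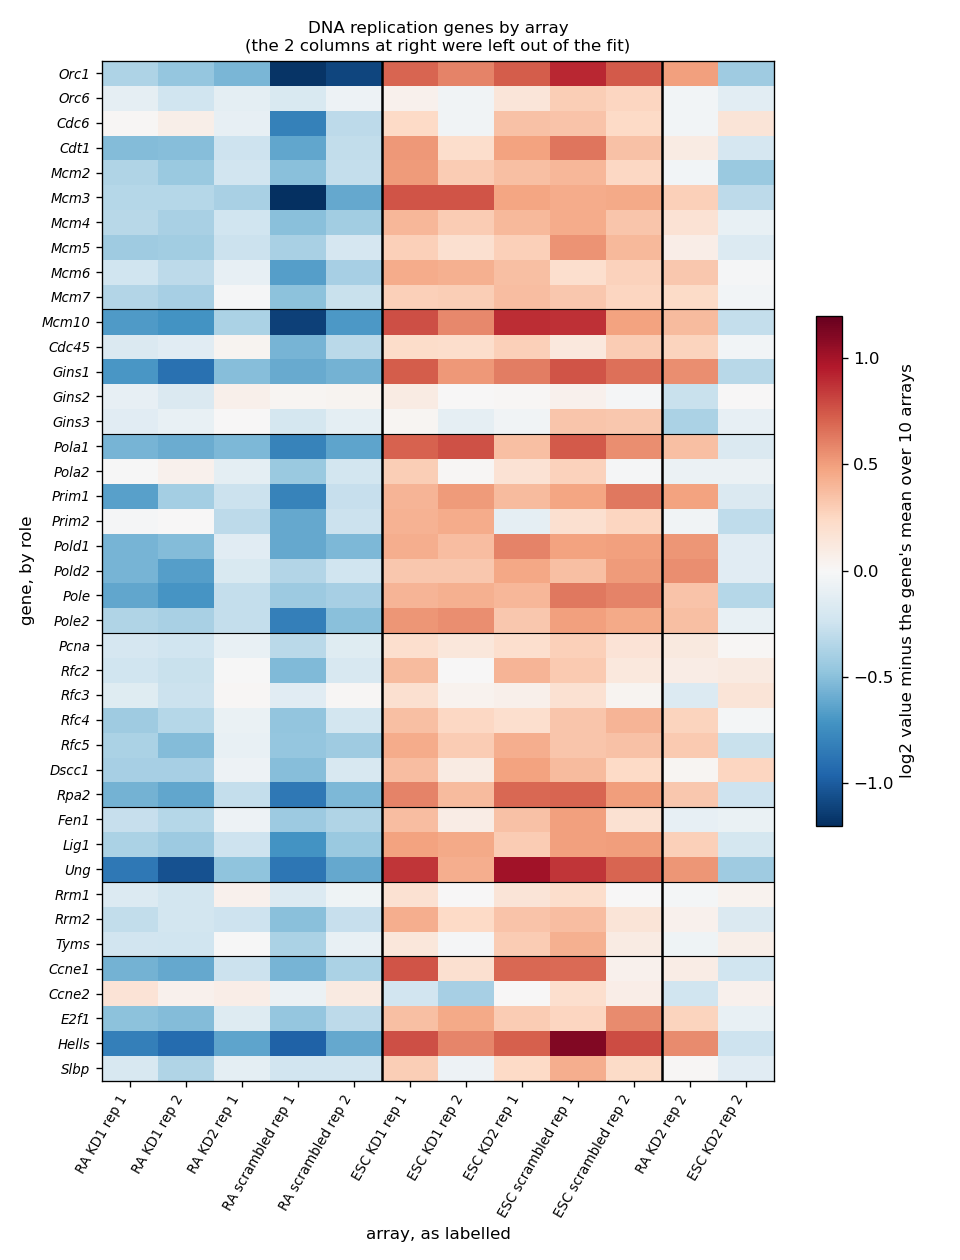
Each row is a replication gene, grouped by role, each column is an array, and colour gives the log2 value minus that gene's mean over the 10 arrays in the fit, with values past the ends of the scale in the end colour. The 5 RA arrays at left are mostly blue and the 5 ESC arrays mostly red, and the 2 arrays at right, which were left out, run against their labels.

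To show the promoters of genes that were lower together, the RefSeq windows from 250 bases before to 50 bases after each start site (GRCm38.p6) were searched on both strands for the E2F-type words TTTCCCGC, TTTGGCGC, TTTCGCGC and TTTGCCGC. Of the 33 replication genes with a window, 14 held a word (42.4%). The share was 2.6% of all 27025 genes with a window and 3.48% of the 15614 tested here with a window. In lists described further below it was 37.8% of 37 other replication genes, 4.35% of 23 mitosis genes and 23.1% of 13 genes of G1 and its inhibitors. A match describes the letters and shows neither a bound site nor a cause. The 30-base stretches below lie wholly before the start site of their window, run 5′ to 3′ on the strand of the gene, and have the words in capitals. That start site is not always the outer end of the gene. The stretches of Orc1, Cdc6, Mcm7, Pola1 and Hells lie inside the RefSeq interval of the gene. A run of 12 capitals holds 2 overlapping words, 1 on each strand.
Orc1: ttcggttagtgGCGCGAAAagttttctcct
Cdc6: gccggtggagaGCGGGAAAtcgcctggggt
Mcm5: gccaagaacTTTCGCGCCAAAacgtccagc
Mcm6 (far): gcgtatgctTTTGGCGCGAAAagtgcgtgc
Mcm6 (near): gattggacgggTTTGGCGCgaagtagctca
Mcm7: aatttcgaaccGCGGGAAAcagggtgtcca
Gins3: gcgagtgcggcGCGGGAAAgcgagtttgaa
Pola1: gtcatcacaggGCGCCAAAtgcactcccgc
Hells: gaccaccgggtTTTCCCGCgaaagagaagc
On the plus strand lie the stretches of Orc1 (chr4:108579416-108579445), Cdc6 (chr11:98908002-98908031), Mcm5 (chr8:75109347-75109376), Gins3 (chr8:95633507-95633536) and Hells (chr19:38930917-38930946). On the minus strand lie those of Mcm6 (chr1:128359795-128359824 and chr1:128359734-128359763), Mcm7 (chr5:138172030-138172059) and Pola1 (chrX:93632275-93632304). The median RA minus ESC difference in scrambled cells was -1.01 for the 14 genes with a word, -0.72 for the 19 with a window and no word, and -0.66 for the 8 with no window. Genes called lower numbered 13 of the 14, 18 of the 19 and 6 of the 8, so the drop was also called for most genes whose window held none of these words.

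Every origin licensing gene, 10 of 10, was called lower in scrambled cells, with a median of -0.81. Orc1, the largest subunit of the origin recognition complex, had the largest change of the 41 in scrambled cells (probe set 10506822, chr4:108575705-108616030). It read 9.87 and 9.77 log2 units in RA KD1, 9.68 in RA KD2 replicate 1, and 9.06 and 9.13 in RA scrambled. Its ESC values were 10.93 and 10.83 in KD1, 10.96 in KD2 replicate 1, and 11.14 and 10.97 in scrambled. All RA arrays lay below all ESC arrays, and within RA the scrambled arrays lay below the knockdown arrays. The arrays left out read 10.72 (labelled RA KD2) and 9.81 (labelled ESC KD2). Orc1 fell in RA to 25.8% of its ESC signal in scrambled cells (log2 -1.96, SE 0.11, adjusted p = 2.56e-06), to 47.8% in KD1 (-1.06, SE 0.11, 8.24e-05) and to 41.1% in KD2 (-1.28, SE 0.16, 0.000925). In KD1 the falls of Ung, Hells, Gins1 and Mcm10 were among those larger than that of Orc1, and in KD2 those of Ung and Hells were larger. All 12 arrays gave Orc1 an adjusted p of 0.0349 in scrambled cells and 0.0939 in KD1, and a KD2 difference of -0.18 that was not called.

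Mcm3, a subunit of the helicase ring (probe set 10353420, chr1:20802966-20820312), read 11.25 and 11.26 in RA KD1, 11.21 in RA KD2 replicate 1, and 10.41 and 10.99 in RA scrambled. The ESC arrays gave 12.36 and 12.36 in KD1, 12.07 in KD2 replicate 1, and 12.04 and 12.05 in scrambled. The states did not overlap, but the RA scrambled arrays stood 0.58 apart. Mcm3 fell in RA by 1.35 in scrambled cells (SE 0.15, adjusted p = 0.000123), by 1.10 in KD1 and by 0.87 in KD2. All 12 arrays kept the calls in scrambled cells and KD1 and gave -0.13 in KD2, not called. The rest of the ring fell together in scrambled cells: Mcm2 by 0.72, Mcm4 by 0.85, Mcm5 by 0.76, Mcm6 by 0.77 and Mcm7 by 0.67. These 5 were also called lower in both knockdown lines, by 0.66 to 0.81 in KD1 and by 0.38 to 0.63 in KD2. The loaders fell in scrambled cells, Cdt1 by 0.96 and Cdc6 by 0.85, and so did Orc6, a small subunit of the origin complex, by 0.40. Of these, Cdt1 was called lower in KD1 (-0.88) and KD2 (-0.73) as well. Cdc6 gave -0.06 in KD1 (adjusted p = 0.814) and -0.45 in KD2 (0.255), and Orc6 gave -0.18 (0.143) and -0.25 (0.207), none of which passed.

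Of the 5 helicase activation genes, 4 were called lower in scrambled cells. Mcm10, which helps to start the assembled helicase, changed most among them (probe set 10479811, chr2:4990724-5012791). It read 9.86 and 9.82 in RA KD1, 10.16 in RA KD2 replicate 1, and 9.42 and 9.84 in RA scrambled, against 11.31 and 11.11 in ESC KD1, 11.42 in ESC KD2 replicate 1, and 11.41 and 11.02 in ESC scrambled. No RA array reached the lowest ESC array. The fall was to 33.3% of ESC in scrambled cells (log2 -1.59, SE 0.17, adjusted p = 9.06e-05), 38.5% in KD1 and 41.8% in KD2. All 12 arrays kept the call in scrambled cells, lost it in KD1 (adjusted p = 0.0503) and gave -0.30 in KD2, not called. The GINS subunits differed among themselves: Gins1 fell by 1.29 in scrambled cells, by 1.42 in KD1 and by 1.13 in KD2. Gins3 fell by 0.49 in scrambled cells and gave -0.08 in KD1 and 0.05 in KD2, neither called. Gins2 gave 0.01 in scrambled cells (95% interval -0.22 to 0.24), -0.19 in KD1 and 0.05 in KD2, with all 10 arrays between 10.02 and 10.30. Cdc45, the third part of the active helicase, fell by 0.66 in scrambled cells and by 0.37 in KD1, and gave -0.26 in KD2 (adjusted p = 0.369).

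All 8 polymerase and primase genes were called lower in scrambled cells, with a median of -1.05. Pola1, the catalytic subunit of the polymerase that extends primers (probe set 10605674, chrX:93304766-93632387), read 8.95 and 8.91 in RA KD1, 8.97 in RA KD2 replicate 1, and 8.70 and 8.88 in RA scrambled. Stem cell values were 10.22 and 10.27 in KD1, 9.87 in KD2 replicate 1, and 10.25 and 10.07 in scrambled. The gap between the states was wider than the spread within either. Pola1 fell in RA to 38.8% of ESC in scrambled cells (log2 -1.37, SE 0.12, adjusted p = 3.23e-05), 40.2% in KD1 and 53.9% in KD2. Scrambled cells and KD1 kept their calls with all 12 arrays, where KD2 gave -0.18 and was not called. Its partner subunit Pola2 fell by 0.47 in scrambled cells and gave -0.13 in KD1 (0.472) and -0.30 in KD2 (0.341). The primase genes Prim1 and Prim2 fell by 1.09 and 0.67 in scrambled cells and by 0.99 and 0.43 in KD1, and neither was called in KD2 (-0.64 and -0.20). The catalytic subunits of the leading and lagging strand polymerases, Pole and Pold1, fell by 1.03 and 1.06 in scrambled cells, by 1.08 and 0.95 in KD1, and by 0.68 and 0.73 in KD2. Their accessory subunits Pole2 and Pold2 fell by 1.13 and 0.73 in scrambled cells and were called lower in both knockdown lines.

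Of the clamp, its loaders and the single-strand binding protein RPA, 6 of 7 genes were called lower in scrambled cells, with a median of -0.66. Rpa2, a subunit of RPA (probe set 10508759, chr4:132768360-132778746), read 10.09 and 10.03 in RA KD1, 10.37 in RA KD2 replicate 1, and 9.80 and 10.11 in RA scrambled. Among ESC arrays the values were 11.25 and 11.04 in KD1, 11.35 in KD2 replicate 1, and 11.36 and 11.16 in scrambled. All RA arrays were below all ESC arrays, and Rpa2 fell to 40.6% of ESC in scrambled cells (log2 -1.30, SE 0.14, adjusted p = 7.22e-05), 47.3% in KD1 and 50.8% in KD2. Fitted to all 12 arrays, Rpa2 kept its call in scrambled cells, lost it in KD1 (adjusted p = 0.0530) and gave -0.20 in KD2, not called. Pcna, which encodes the clamp, fell by a smaller amount, 0.46 in scrambled cells and 0.39 in KD1, and gave -0.29 in KD2 (0.0698). Its 2 probe sets gave -0.46 each. Among the clamp loader subunits, Rfc5 fell by 0.79, Rfc4 by 0.72 and Rfc2 by 0.58 in scrambled cells, while Rfc3 gave -0.17 (adjusted p = 0.279). Rfc3 was called lower in KD1 (-0.32, adjusted p = 0.0493), where Rfc2 was not (-0.44, 0.0559). Dscc1, a subunit of an alternative clamp loader, fell by 0.66 in scrambled cells, and it was the dimmest of the 41, between 6.77 and 7.76 in the 10 arrays.

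The genes that finish Okazaki fragments or remove uracil from DNA were all called lower in scrambled cells, 3 of 3. Ung, the uracil-DNA glycosylase (probe set 10524450, chr5:114130366-114139321), read 8.81 and 8.62 in RA KD1, 9.18 in RA KD2 replicate 1, and 8.81 and 9.06 in RA scrambled. The ESC values were 10.53 and 10.10 in KD1, 10.68 in KD2 replicate 1, and 10.52 and 10.37 in scrambled. The states were separated in each line, with the RA KD2 array the highest of the RA arrays. Ung fell to 35.0% of ESC in scrambled cells (log2 -1.52, SE 0.17, adjusted p = 0.000102), 33.0% in KD1 and 35.5% in KD2. Fitted with all 12 arrays, its adjusted p was 0.0547 in scrambled cells and 0.0544 in KD1, and KD2 gave -0.27, none of them called. Lig1, the ligase that seals the fragments, fell by 1.08 in scrambled cells, 0.88 in KD1 and 0.55 in KD2. Fen1, the flap nuclease, fell by 0.74 in scrambled cells and 0.54 in KD1 and gave -0.42 in KD2 (0.202).

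Of the 3 nucleotide supply genes, 2 were called lower in scrambled cells. Rrm2, the regulated subunit of ribonucleotide reductase (probe set 10394978, chr12:24708254-24714146), read 11.52 and 11.60 in RA KD1, 11.57 in RA KD2 replicate 1, and 11.32 and 11.55 in RA scrambled. The stem cell arrays gave 12.25 and 12.06 in KD1, 12.17 in KD2 replicate 1, and 12.19 and 11.97 in scrambled. The states did not overlap, and Rrm2 fell by 0.65 in scrambled cells (SE 0.11, adjusted p = 0.00128), 0.60 in KD1 and 0.59 in KD2. With all 12 arrays it was called in scrambled cells (0.0488) but not in KD1 (0.0628) or in KD2, at -0.18. Rrm1, the large subunit, gave -0.22 in scrambled cells (adjusted p = 0.0836) and was called lower in KD1 (-0.29, 0.0332). Tyms, which makes thymidylate, fell by 0.49 in scrambled cells and gave -0.30 in both KD1 (0.108) and KD2 (0.325).

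Of the 5 remaining genes, 4 were called lower in scrambled cells. Hells, a chromatin remodeller needed for DNA methylation (probe set 10462973, chr19:38930262-38970470), read 9.84 and 9.74 in RA KD1, 10.02 in RA KD2 replicate 1, and 9.69 and 10.04 in RA scrambled. Its stem cell values were 11.43 and 11.24 in KD1, 11.38 in KD2 replicate 1, and 11.77 and 11.44 in scrambled. The RA arrays of all lines overlapped one another and lay far below the ESC arrays. Hells fell to 29.9% of ESC in scrambled cells (log2 -1.74, SE 0.15, adjusted p = 2.86e-05), 34.1% in KD1 and 39.0% in KD2. Calls in scrambled cells and KD1 were kept with all 12 arrays, and KD2 gave -0.27, not called. E2f1, which activates many of these genes, fell by 0.80 in scrambled cells and 0.91 in KD1 and gave -0.46 in KD2 (0.116). Slbp, which binds the stem-loop of histone mRNAs, fell by 0.57 in scrambled cells and 0.40 in KD1.

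The cyclins that start S phase with Cdk2 did not move together. Ccne1 fell by 0.83 in scrambled cells (SE 0.21, adjusted p = 0.0114) and by 1.07 in KD1, and gave -0.95 in KD2 (0.0549), although its ESC scrambled arrays stood 0.63 apart. Ccne2 read 9.19 and 9.07 in RA KD1, 9.10 in RA KD2 replicate 1, and 8.96 and 9.13 in RA scrambled, against 8.79 and 8.63 in ESC KD1, 9.03 in ESC KD2 replicate 1, and 9.23 and 9.10 in ESC scrambled. The ESC KD1 arrays were the lowest of the 10, and the RA arrays lay close together. Ccne2 was the 1 gene called higher, by 0.42 in KD1 (SE 0.13, adjusted p = 0.0290), and gave -0.12 in scrambled cells (0.515) and 0.07 in KD2 (0.857). The KD1 call held in 10 of 16 alternatives. It was lost with all 12 arrays (limma adjusted p = 0.103), with a replicate block within each state and after renewed quantile normalization. Leaving out ESC KD1 replicate 2, RA KD1 replicate 1 or RA KD1 replicate 2 lost it as well.

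**Figure D2:**
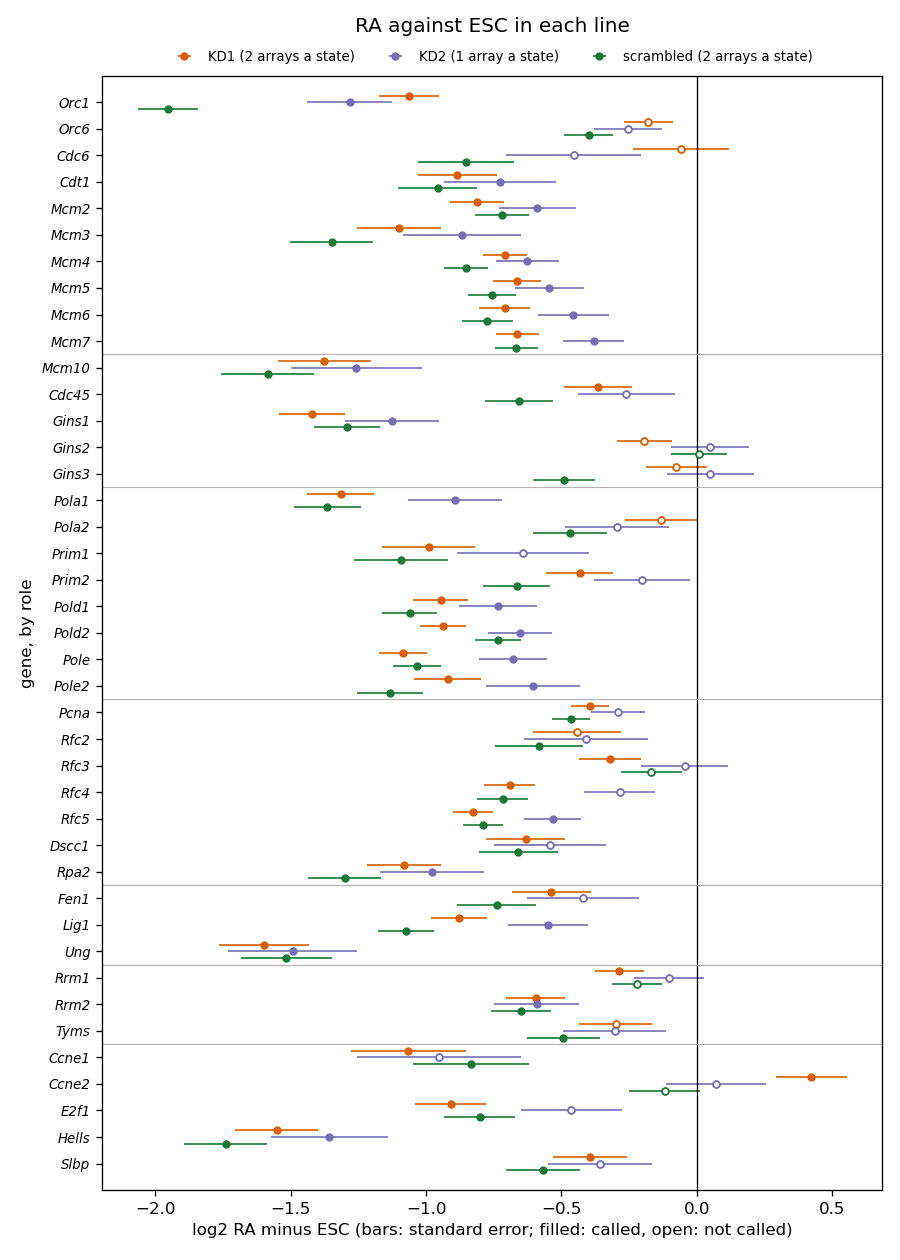
Points give the log2 RA minus ESC difference of each gene in KD1, KD2 and scrambled cells, with standard errors from the fit of 10 arrays and filled points for called genes. Most points lie left of 0, Orc1 in scrambled cells farthest at -1.96, and Gins2 and Ccne2 lie near or right of 0.

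**Figure D3:**
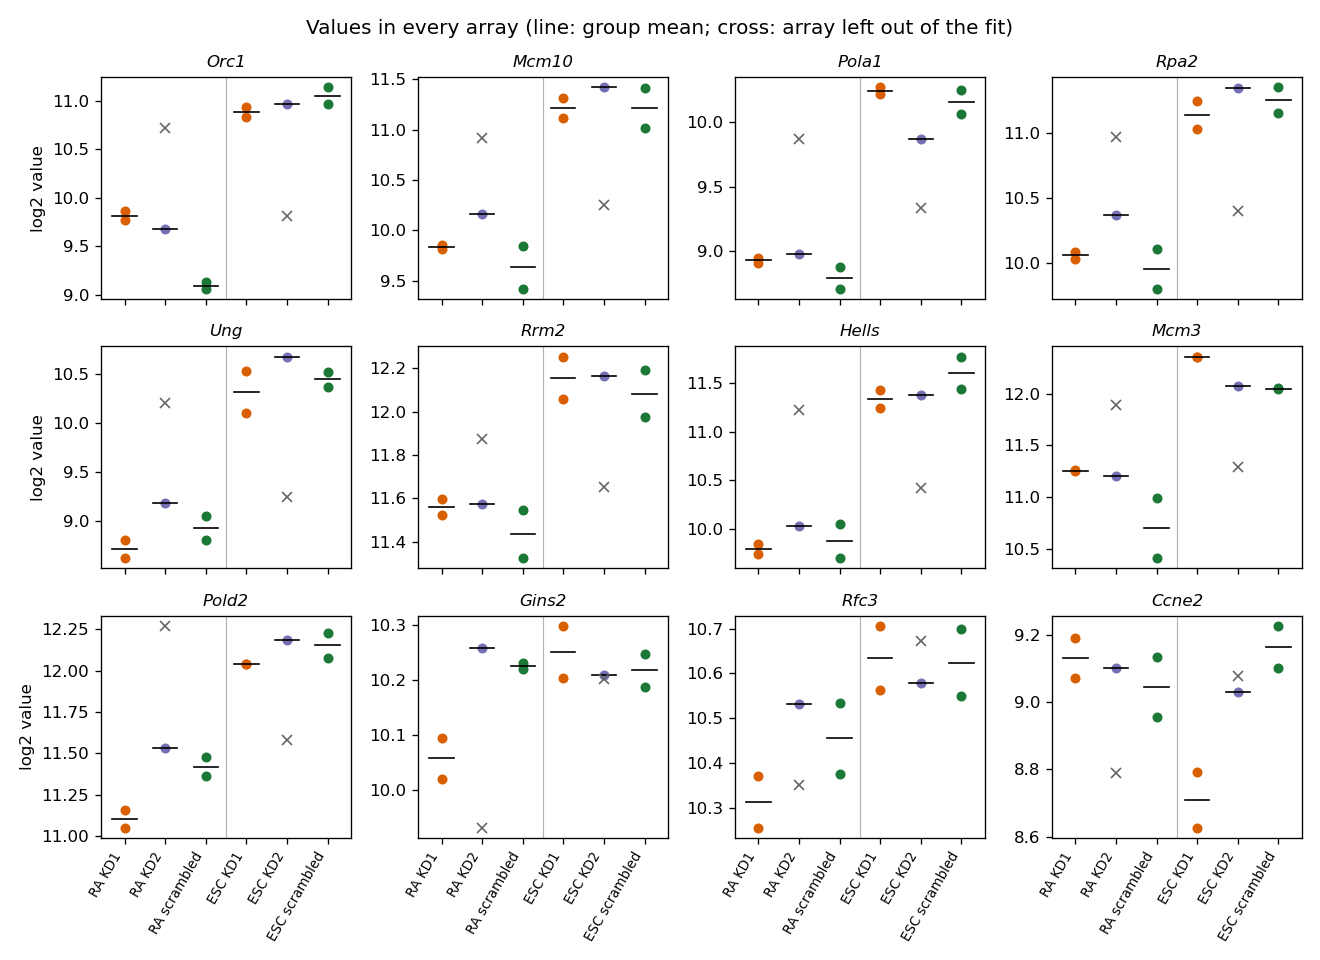
Log2 values of 12 replication genes in every array, with RA groups at left and ESC groups at right, lines for group means and crosses for the 2 arrays left out of the fit. Gins2 and Ccne2 overlap between states. In all other panels every fitted RA point lies below every fitted ESC point, in that of Rfc3 only narrowly.

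Genes of the same process outside the set, and genes of other cell cycle stages, were read in the same fit. Their lists, like the set, were chosen with earlier results of these data known. Over all genes, 20.8% were called lower in RA than in ESC in scrambled cells and 21.8% higher. Of 43 other replication genes measured, 34 were called lower in RA than in ESC in scrambled cells and 1 higher, with a median of -0.69. The largest falls were in Rif1, which sets origin timing (-1.69), Ticrr, which loads Cdc45 (-1.68), Msh6, a mismatch repair protein (-1.41), and Tipin, a fork protection protein (-1.31). The exception was Pold4, the smallest subunit of the lagging strand polymerase, at 0.94 (adjusted p = 0.00220). All 29 mitosis genes measured were called lower as well, with a median of -0.70, among them Cdca8 (-1.15), Cenpf (-1.12), Aurka (-1.06) and Bub1b (-0.97), which serve chromosome attachment and the spindle. Of 19 genes of G1 and its inhibitors, 7 were called higher and 2 lower. The inhibitors Cdkn2b, Cdkn2a and Cdkn1c rose by 2.24, 2.00 and 1.89, the cyclin Ccnd2 by 3.34, and E2f4 and Tfdp2 fell by 0.54 and 0.46. The medians of the replication and mitosis lists thus lay close to each other, and their difference was not tested.

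In ESC, no replication gene was called between the knockdown lines and scrambled cells. For KD1 against scrambled, 0 were called in either direction (background 0.843% higher and 1.08% lower), and the median was -0.06. The lowest p-values were those of Ccne2 (-0.46, limma adjusted p = 0.140), Gins3 (-0.37, 0.161) and Orc6 (-0.27, 0.189). With a replicate block within each state, these 3 were called lower (background 6.53%). For KD2 against scrambled, 0 were called (background 0.717% and 0.271%), and the median was 0.00. Gins3 differed most, at -0.37 as in KD1, but both comparisons use the same scrambled arrays. Gins3 read 9.63 and 9.50 in ESC KD1 and 9.56 in ESC KD2 replicate 1, against 9.94 and 9.93 in ESC scrambled. The fit of all 12 arrays called 0 in KD1 (background 0.0201% higher and 0.0451% lower) and 0 in KD2 (0.01% and 0.0752%), and the KD2 median became -0.27.

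In RA, KD1 differed from scrambled cells in 3 replication genes, 2 higher and 1 lower (background 5.39% and 6.69%), and the median over the 41 was 0.01. Neither share was above that of all genes. Orc1 was higher, at 165% of scrambled (log2 0.72, SE 0.11, adjusted p = 0.00366). Its KD1 arrays (9.87 and 9.77) did not overlap the scrambled arrays (9.06 and 9.13). Mcm3 was also higher, at 147% (log2 0.56, SE 0.15, adjusted p = 0.0472). Without RA scrambled replicate 1, the lower of the Mcm3 control arrays, its difference was 0.27 and not called (adjusted p = 0.128). Pold2, the accessory subunit of the lagging strand polymerase (probe set 10384032, chr11:5872180-5878256), read 11.16 and 11.05 in RA KD1 and 11.53 in RA KD2 replicate 1, against 11.36 and 11.48 in RA scrambled. The KD1 arrays were the lowest, and Pold2 was lower at 80.4% of scrambled (log2 -0.31, SE 0.08, adjusted p = 0.0430). Cdc6 (0.60, adjusted p = 0.0610) and Prim2 (0.44, 0.0545) lay above 0 without passing. With all 12 arrays, 0 of the 41 were called (background 1.58% and 0.742%), and the adjusted p of Orc1 was 0.542. Over 16 alternatives the Orc1 call held in 15, and those of Mcm3 and Pold2 in 8 each.

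Other genes also differed between these arrays. Over all genes, 5.39% were called higher and 6.69% lower in KD1 than in scrambled cells in RA. All 8 endoderm markers were called higher in KD1 than in scrambled cells in RA, and their mean log2 value was 12.27 to 12.34 in RA KD1, 10.63 in RA KD2 replicate 1 and 9.50 to 9.72 in RA scrambled, against 8.37 to 8.45 in ESC KD1, 8.85 in ESC KD2 replicate 1 and 7.58 to 7.63 in ESC scrambled. Of the 29 mitosis genes, 10 were called higher in KD1 in RA, among them Cenpf (0.58), Kif23 (0.54), Nuf2 (0.51) and Cdca8 (0.43), with a median of 0.29. Of the other replication genes, Rnaseh2a was the 1 called, at -0.47. In the G1 list Cdkn2a (-0.82) and Tfdp1 (-0.60) were lower. The RA scrambled arrays were also less alike for the replication genes than for other genes: the median gap between them was 0.22 log2 units for the 41 and 0.12 for all genes. With each of the 41 set against its own mean over 10 arrays, the median was -0.51 in replicate 1 and -0.30 in replicate 2. The part of these markers in the KD1 result was not tested. Without RA scrambled replicate 1, KD1 against scrambled in RA gave 1 gene higher and 0 lower.

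For KD2 against scrambled in RA, 0 of the 41 were called (background 0.326% and 0.637%). A replicate block within each state called some of them higher, and the counts are listed with the processing. All 41 differences were above 0, against 56.8% of all genes, with a median of 0.22 against 0.03. The mitosis list had 28 of 29 above 0 with a median of 0.37, and the other replication genes 38 of 43 with a median of 0.22. Orc1 was again largest, at 0.59 (SE 0.14, adjusted p = 0.110), ahead of Mcm10 (0.53), Mcm3 (0.51) and Cdc45 (0.47). With each of the 41 set against its own mean over 10 arrays, the median was -0.51 and -0.30 in RA scrambled. It was -0.36 and -0.39 in RA KD1 and -0.16 in RA KD2 replicate 1. This comparison rests on that 1 KD2 array, and it shares the scrambled arrays with KD1. In that array the stem cell markers averaged 9.12, against 8.13 to 8.92 in RA scrambled, and its mean correlation with the ESC arrays over all genes was 0.951, against 0.935 to 0.942 for RA scrambled. Their part in the result was not tested. In the fit of all 12 arrays, where RA KD2 includes the array that resembles ESC, the median was 0.44. There 0 genes were called (background 0.0251% and 0.246%).

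**Figure D4:**
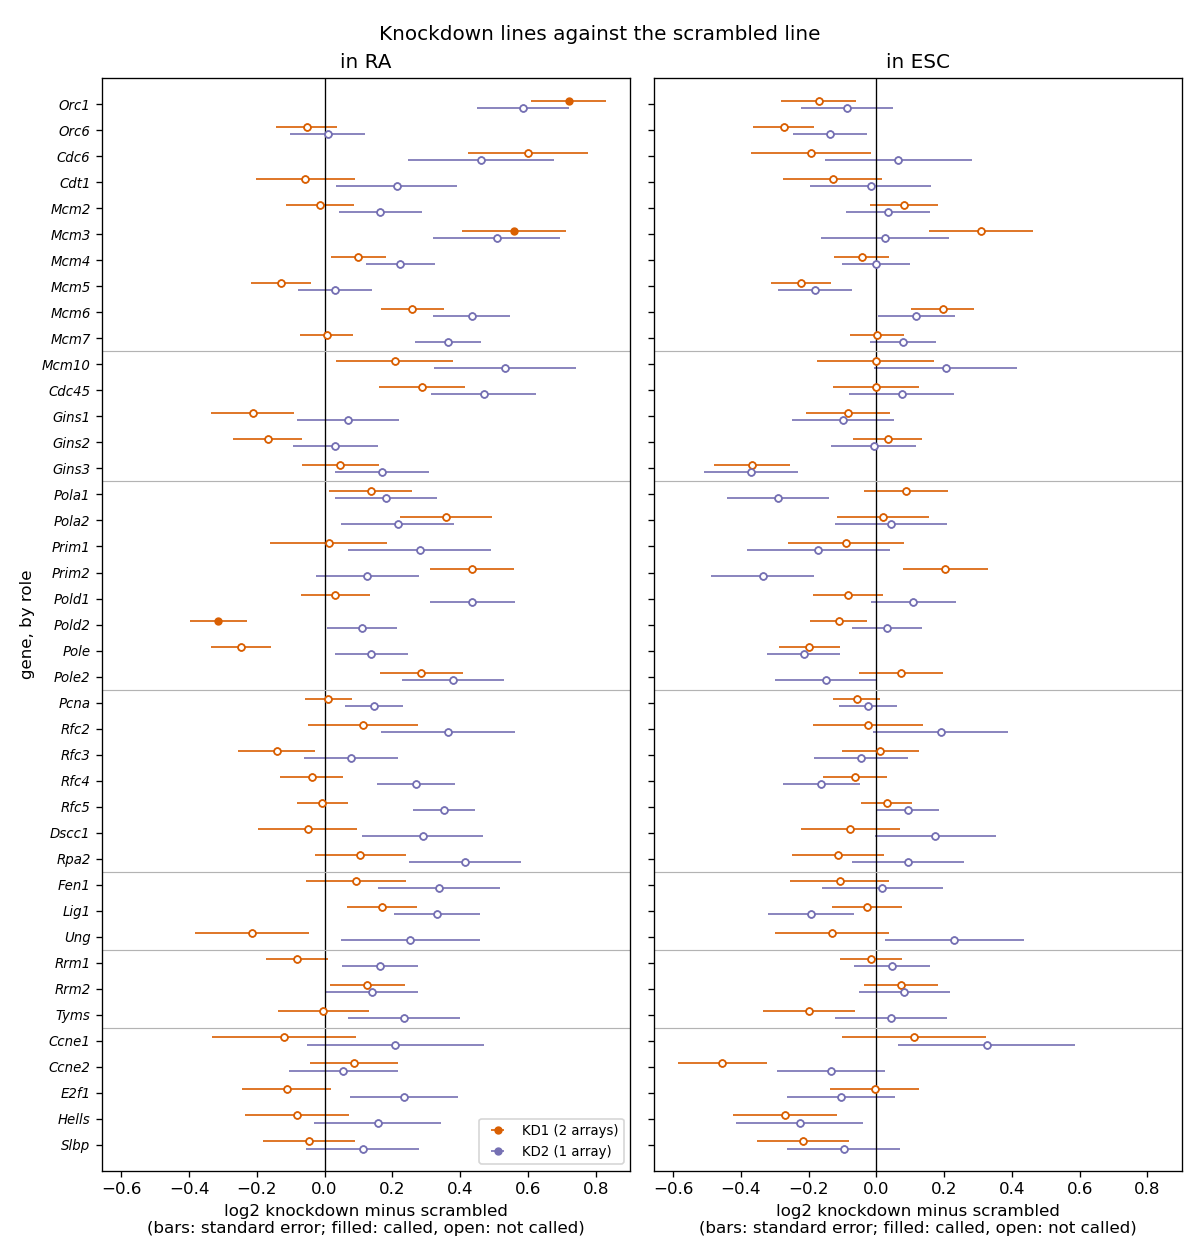
Points give the log2 difference of KD1 and KD2 from scrambled cells for each gene, in RA at left and in ESC at right, with standard errors from the fit of 10 arrays. Filled points, for called genes, are Orc1, Mcm3 and Pold2 in KD1 in RA, all KD2 points in RA lie above 0, and points in ESC lie on both sides of it.

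The interaction asks whether the RA change differed between a knockdown line and scrambled cells. For KD1 it was called for 1 gene (background 2.54% higher and 2.28% lower): Orc1 fell less in KD1, by 1.06, than in scrambled cells, by 1.96 (interaction 0.89, SE 0.16, adjusted p = 0.0147). The next were Cdc6 (0.79, adjusted p = 0.127) and Ccne2 (0.54, 0.159), which did not pass. The Orc1 interaction was not called with all 12 arrays (adjusted p = 0.814; background 0.206% higher and 0.0552% lower), nor without ESC KD1 replicate 2 (0.0546), RA KD1 replicate 1 (0.0802), RA KD1 replicate 2 (0.0719) or RA scrambled replicate 1 (0.0620). For KD2, 0 genes were called (background 0.0502% and 0.301%) and the median was 0.26, from 1 KD2 array per state. All 12 arrays gave 0 calls for KD2 too (background 0% and 0.0201%). With a replicate block within each state, Cdc6, Ccne2 and Pola2 were called higher for KD1 besides Orc1 (background 7.18%). Orc1 then gave 0.73 for KD2. In the fit without the block, the genes other than Orc1 thus gave no called difference in their RA change between the lines. With 2 arrays or 1 per group, this does not show that the changes were alike.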

How the data were processed

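Values for 35556 probe sets on 12 arrays came as log2 from the authors, who used RMA, a method that corrects background and normalizes between arrays, per the submitters' processing notes. Its version is not given in the sources used here. Array medians lay between 7.17 and 7.24. Of these, 21789 had 1 gene symbol in the platform annotation, and the brightest per gene gave 19938 genes. RefSeq GRCm38.p6 matched all 41 replication genes by gene ID. Limma 3.58.1 in R 4.3.3 fitted 6 group means with an intensity trend to 10 arrays (4 residual and 4.93 prior degrees of freedom), with Benjamini-Hochberg adjustment over all genes. The pipeline was tested on simulated data. Alternatives were all 12 arrays, a replicate block, the mean over probe sets, no trend, leaving out genes below 7.22, renewed quantile normalization, and leaving out each array. Members and gene lists were chosen with earlier results of these data known. Array values are given, per role, for the gene with the largest change in scrambled cells and for genes called between lines. Other lists name up to 4 called genes per direction. Figures used matplotlib 3.10.9.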

Additional observations from a re-analysis of the deposited data

Results flagged for a closer look

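Orc1 stands out because its change in RA differed between KD1 and scrambled cells by a direct test. The interaction of KD1 and RA was 0.89 log2 units (SE 0.16, adjusted p = 0.0147 by limma). It was called in 11 of 16 alternatives, and the difference lay between 0.81 and 0.98 in all of them. Orc1 was the 1 gene called of the 41, a share no higher than the 2.54% of all genes called higher in this interaction. For KD2, with 1 array per state, the interaction of Orc1 was 0.67 and was not called.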

How the results depend on the processing

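Differences between RA and ESC in scrambled cells held best: 37 genes were called lower, 26 with all 12 arrays, and 31 to 38 when each array was left out, 31 without RA scrambled replicate 1. With all 12 arrays, genes called lower in KD1 numbered 18 and higher 0, those lower in KD2 0, those in KD1 against scrambled in RA 0 and 0, and the KD1 interaction 0. The KD2 differences of Rfc5 (0.022), Pold2 (0.02) and Pole (0.0026) then turned above 0, since that group mean includes an array that resembles the other state. Without the intensity trend, KD1 against scrambled in RA gave 1 higher and 0 lower. With renewed quantile normalization, 0 genes were higher in RA in KD1. Leaving out each array gave 0 to 1 higher and 26 to 34 lower in KD1, 15 to 23 lower in KD2, 1 to 5 higher and 0 to 1 lower for KD1 against scrambled in RA (5 without RA scrambled replicate 2), 0 to 1 higher for KD2 against scrambled in RA, and 0 to 2 for the KD1 interaction. The cause was not tested.

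Replicate numbers are shared between groups, but the labels name no shared day or batch, and replicate differences correlated at 0.633 in ESC and 0.150 in RA between scrambled and KD1, and between -0.02 and 0.07 across states. With a replicate block within each state, 38 genes were lower in RA in scrambled cells (background 24.1%), 36 in KD1 (25%) with 0 higher, and 30 in KD2 (16.5%). KD1 against scrambled then gave 3 lower in ESC (Orc6, Gins3 and Ccne2; background 6.53%) and 6 higher and 2 lower in RA (10.1% and 13.9%), KD2 against scrambled in RA gave 7 higher (1.99%), and the interactions gave 4 for KD1 (7.18%) and 1 for KD2 (0.552%).

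Of the single gene calls, the call was lost in the same direction for 49 with all 12 arrays and together with the sign for 3 (Rfc5, Pold2 and Pole, above), and in the same direction for 8 without the trend, 7 after renewed normalization and 1 with the block, and for 0 with the mean over probe sets or with dim genes left out.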
